A study of Mus musculus with 24 samples.

Results

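The 9 genes described here, most of them known as marks of the brain's membranes and connective tissue, were followed across 24 libraries of mouse anterior cingulate cortex: Col1a1, Col1a2, Col3a1, Dcn, Igf2, Slc6a13, Ptgds, Fn1 and Igfbp2. They were chosen by name as a sign of membrane carried with the tissue, and all 9 were found among the 15232 genes of the table. A gene had to reach a mean of 1 FPKM, a level corrected for gene length and library size, to enter the fit over all genes, and 8 of the 9 did. Col3a1, at a mean of 0.555 FPKM, did not, and was compared on its own values.

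The cortex, described in the labels as bulk RNA of all its cells, came from 3 arms of 8 mice, each with 4 females and 4 males and 1 library per animal. The arms were untrained mice labelled WT, untrained mice labelled Thbs1/2 KO, and mice labelled Thbs1/2 KO that had been trained in an operant (Skinner) box. Thbs1 and Thbs2 encode thrombospondins, matrix proteins that astrocytes secrete. Trained mice were also deprived of food, so training and food deprivation cannot be told apart. Trained WT mice were not analysed here. Strain, age and the design of the knockout alleles were not given in the sources used here.

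The brain is wrapped in meninges, whose innermost layers, the pia and arachnoid, are built by fibroblasts. Fibroblasts of the same kind follow the larger vessels into the cortex. They secrete collagens and small proteoglycans, release growth factors, and carry transporters that clear solutes between the cerebrospinal fluid and the blood. In a bulk sample, fewer cells of a type and less RNA per cell cannot be told apart, and the amount of membrane dissected with each piece of cortex was not given in the sources used here.

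Both targeted genes were higher where the labels say they were knocked out. Thbs1 averaged 0.512 ± 0.147 FPKM (SD, n = 8) in untrained libraries labelled WT, 3.68 ± 0.840 (SD, n = 8) in untrained libraries labelled KO and 4.63 ± 0.690 (SD, n = 8) in trained libraries labelled KO, and Thbs2 averaged 2.02, 3.51 and 3.29 FPKM in the same order. Every direction between arms therefore rests on the labels, and the arms are called by them. Depth, recovered from the steps of the FPKM values, had a median of 15.9 M reads in the arm labelled WT, 15.9 in the untrained and 18.6 in the trained arm labelled KO, and ran from 12.3 to 27.2. The deepest, male library 3 of the untrained arm labelled KO, also stood apart in tissue: its summed septal neuron markers reached 187 FPKM, against 22.5 to 30.8 FPKM in the arm labelled WT. All 8 trained animals carried animal numbers over 1000, against 2 untrained males labelled KO and 1 male labelled WT, so that number and training could be separated only in part.

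Of the 9 genes, 6 have an entry in the RefSeq promoter table for GRCm38.p6: Col1a2, Col3a1, Igf2, Slc6a13, Ptgds and Igfbp2. Col1a1, Dcn and Fn1 have none. The 250 bases before a start site are shown for a fibrillar collagen, a growth factor and its binding protein, each at a start whose window holds no annotated exon and at least 1 match. Capitals mark each match, on either strand, to the TATA box, searched as TATAAA. They also mark the CCAAT box, searched by its name alone, and the GC box, searched as GGGCGG. No match overlapped another.
Col3a1, chr1:45311288-45311537, + strand: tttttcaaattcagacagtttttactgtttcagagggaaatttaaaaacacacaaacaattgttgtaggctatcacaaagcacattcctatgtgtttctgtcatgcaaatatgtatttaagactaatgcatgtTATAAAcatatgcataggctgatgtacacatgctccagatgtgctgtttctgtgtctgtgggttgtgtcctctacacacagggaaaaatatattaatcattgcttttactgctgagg
Igf2, 1 of 4 listed starts, chr7:142657497-142657746, - strand: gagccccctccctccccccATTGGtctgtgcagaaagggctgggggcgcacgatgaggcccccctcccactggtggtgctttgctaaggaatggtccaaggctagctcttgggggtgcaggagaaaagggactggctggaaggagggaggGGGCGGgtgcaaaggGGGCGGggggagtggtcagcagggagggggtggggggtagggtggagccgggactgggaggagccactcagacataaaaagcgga
Igfbp2, 1 of 2 listed starts, chr1:72824230-72824479, + strand: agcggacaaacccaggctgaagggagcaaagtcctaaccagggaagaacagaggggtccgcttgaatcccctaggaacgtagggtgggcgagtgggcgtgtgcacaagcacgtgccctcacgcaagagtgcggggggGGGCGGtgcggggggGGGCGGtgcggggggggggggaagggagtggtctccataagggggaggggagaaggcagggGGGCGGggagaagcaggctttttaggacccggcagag
The window of Col3a1 held 1 TATAAA, which began at base -117 from the start, and neither other motif. The window of Igf2 held 1 CCAAT, at -231 on the opposite strand, and 2 GGGCGG. The window of Igfbp2 held 3 GGGCGG, the nearest at -37, and neither other motif. Of 32851 mouse windows of the same length, 12.4% held TATAAA, 33.8% CCAAT and 32.7% GGGCGG. None of the 3 motifs was found in all 3 windows.

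The collagens were the scarcest of the 9. Col1a1 (chr11:94936224-94953042) and Col1a2 (chr6:4504814-4541544) encode the 2 chains of type I collagen, the main tension-bearing fibril, and Col3a1 (chr1:45311538-45349706) encodes the single chain of type III collagen, which mixes into the same fibrils. Over the 24 libraries Col1a1 averaged 1.13 ± 0.408 FPKM (SD), Col1a2 3.72 ± 0.964 (SD) and Col3a1 0.555 ± 0.223 (SD). In untrained libraries labelled WT the lowest, median and highest Col1a1 values were 0.476, 0.822 and 1.23 FPKM, in untrained libraries labelled KO 0.501, 1.38 and 2.04, and in trained libraries labelled KO 0.727, 1.29 and 1.44. All 3 ranges overlapped, but 5 of the 8 trained libraries and 4 of the 8 untrained libraries labelled KO lay above the highest labelled WT.

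Col1a2 ran from 2.26 through a median of 3.23 to 3.99 FPKM in the libraries labelled WT, from 2.31 through 4.05 to 6.32 in the untrained libraries labelled KO and from 2.93 through 3.94 to 4.55 in the trained ones. Col3a1 ran from 0.279 through 0.344 to 0.921, from 0.353 through 0.687 to 1.03 and from 0.379 through 0.568 to 0.863 FPKM. For both, the lower ends of the arms lay close together and the medians labelled KO lay above the median labelled WT. Col3a1 rested on 23 to 165 reads a library.

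Dcn (chr10:97479609-97518143) encodes decorin, a small proteoglycan that binds collagen fibrils and sets their spacing. It ran from 2.59 through a median of 4.09 to 7.85 FPKM in libraries labelled WT, from 2.55 through 5.31 to 6.64 in untrained libraries labelled KO and from 3.12 through 5.06 to 6.26 in trained ones. Its arms lay on top of each other, and the highest library of all was labelled WT. Fn1 (chr1:71585520-71653200) encodes fibronectin, a matrix glycoprotein that cells grip through integrins and that vessel walls also make. It ran from 4.04 through 5.70 to 8.50, from 4.43 through 5.77 to 7.58 and from 4.83 through 6.17 to 9.26 FPKM in the same order, and its arms overlapped over almost their whole range.

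Igf2 (chr7:142650766-142666816) encodes insulin-like growth factor 2, which in the adult brain comes mainly from meninges and choroid plexus. It ran from 4.79 through a median of 8.27 to 10.5 FPKM in libraries labelled WT, from 5.60 through 13.4 to 18.6 in untrained libraries labelled KO and from 8.33 through 11.7 to 14.4 in trained ones. In both arms labelled KO, 5 of 8 libraries exceeded the highest labelled WT. Igfbp2 (chr1:72824503-72852474), a secreted protein that binds insulin-like growth factors, ran from 9.48 through 12.1 to 14.3, from 7.67 through 12.3 to 26.0 and from 11.0 through 13.9 to 17.0 FPKM. The 3 medians were close, and the value of 26.0 belonged to the untrained male library 3 that stood apart.

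Slc6a13 (chr6:121300227-121337733) encodes GAT2, a transporter of GABA and taurine found in the meninges. It ran from 1.84 through a median of 2.92 to 4.20 FPKM in libraries labelled WT, from 1.69 through 4.66 to 7.16 in untrained libraries labelled KO and from 2.75 through 4.25 to 5.99 in trained ones. The untrained arm labelled KO was widest, holding both the lowest and the highest value. Ptgds (chr2:25466709-25470046) encodes lipocalin-type prostaglandin D synthase, which makes prostaglandin D2, is secreted into the cerebrospinal fluid and is also made by oligodendrocytes. It ran from 401 through 528 to 650 FPKM, from 390 through 738 to 1148 and from 683 through 978 to 1142. Every trained library lay above every library labelled WT, and 7 of the 8 untrained libraries labelled KO did so too.

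**Figure D1:**
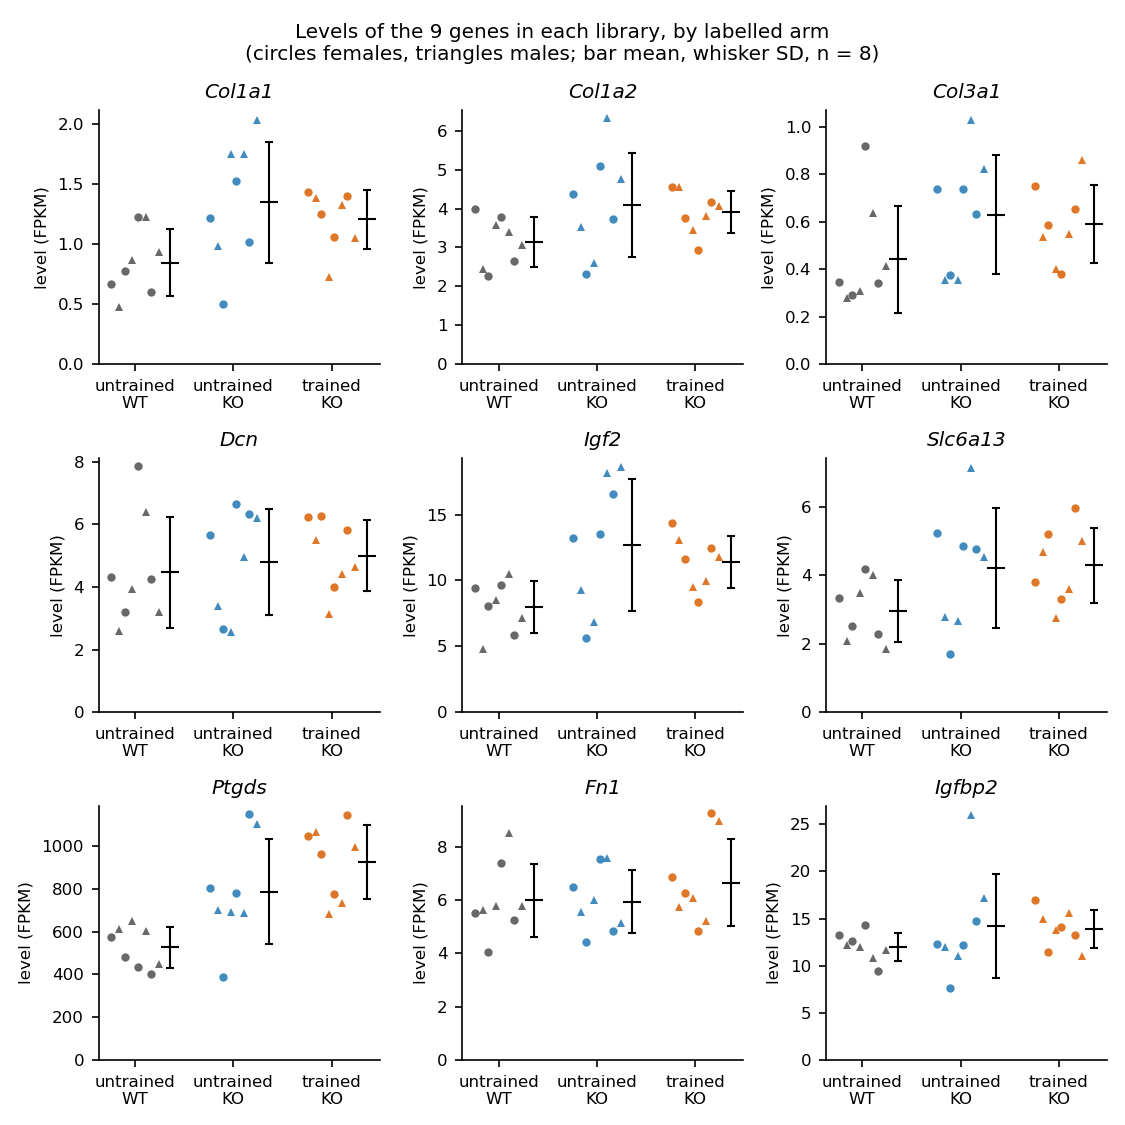
Level of each of the 9 genes in FPKM (vertical axis, from 0, own scale per gene) in every library, by labelled arm; circles are females, triangles males, and the bar and whisker give the mean and SD of 8 libraries. The trained libraries of Ptgds sit between 683 and 1142 FPKM, above all libraries labelled WT (401 to 650), while the arms of the other 8 genes overlap.

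Levels per length ordered the genes as Ptgds (746 FPKM), Igfbp2 (13.4), Igf2 (10.7), Fn1 (6.19), Dcn (4.75), Slc6a13 (3.83), Col1a2 (3.72), Col1a1 (1.13) and Col3a1 (0.555). Ptgds ranked 14 of 15232 genes, and Col3a1 lay at percentile 11.2. Neighbours in that order kept it in all 24 libraries for Ptgds over Igfbp2, Col1a2 over Col1a1 and Col1a1 over Col3a1. Slc6a13 exceeded Col1a2 in only 12 of 24 libraries, so these neighbours could not be ordered. The others kept their order in 18 to 23 libraries.

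The untrained arms compare the genotype labels alone. None of the 8 tested genes passed a limma adjusted p of 0.05 (Benjamini-Hochberg over 12572 genes), where 1.42% of all genes did. Without adjustment 3 had a p under 0.05 in limma, against 12.7% of all genes. They were Ptgds, whose mean rose from 526 ± 94.4 to 787 ± 243 FPKM (SD, n = 8; log2 change 0.54, SE 0.174, limma adjusted p = 0.181), Col1a1 (0.848 to 1.35 FPKM; 0.33, SE 0.125, limma adjusted p = 0.262) and Igf2 (7.99 to 12.7 FPKM; 0.54, SE 0.224, limma adjusted p = 0.302). Log2 changes throughout are of FPKM + 1, so for scarce genes such as the collagens they come out smaller than the ratio of means.

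Of the 8 tested, 7 had a positive change, with a median of 0.30 against -0.001 over all genes. Because the 9 genes varied together within arms (below), these signs are not separate observations. Fn1 was level, with means of 5.99 and 5.94 FPKM. Col3a1 differed by 0.18 (exact permutation test within sex, 2-sided, p = 0.135). One library decided the call of Ptgds: without female library 2 of the untrained arm labelled KO, at 390 FPKM the lowest of all 24, its change was 0.67 (SE 0.139, limma adjusted p = 0.0245). Col3a1 depended on 1 library in the same way, since without female library 3 labelled WT it differed by 0.24 (exact permutation test, p = 0.0355). Without male library 3 labelled KO no gene passed, and Igfbp2 moved from 0.15 to 0.03.

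Training was compared within the label KO. None of the 8 tested genes passed, where 5.67% of all genes did (3.50% higher), and none had an unadjusted p under 0.05 in limma, against 23.8% of all genes. Their median change was 0.05 against 0.007 over all genes. Ptgds had the largest, from 787 ± 243 to 925 ± 172 FPKM (SD, n = 8; log2 change 0.28, SE 0.182, limma adjusted p = 0.374). The others lay between -0.07 for Igf2 and Col1a1 and 0.13 for Fn1 (SE 0.123 to 0.208), and Col3a1 differed by -0.03 (exact permutation test within sex, p = 0.780). For none of the 9 did the 2 arms lie apart, which they did for 0.962% of all genes. The SD of Igf2 was 5.03 FPKM in the untrained and 2.00 in the trained arm.

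The trained arm labelled KO and the arm labelled WT differ in both label and training, and share an arm with each comparison above. Here 4 of the 8 tested genes rose and none fell, where 12.9% of all genes rose and 24.5% moved in either direction. Ptgds rose from 526 ± 94.4 to 925 ± 172 FPKM (SD, n = 8), a ratio of 1.76 and a log2 change of 0.81 (SE 0.121, limma adjusted p = 1.86e-04). Its 2 arms did not overlap, which held in that direction for 1.65% of all genes and in either for 3.11%. Igf2 rose from 7.99 to 11.4 FPKM (0.48, SE 0.130, limma adjusted p = 0.0129), with all 8 trained libraries above the mean labelled WT.

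Slc6a13 rose from 2.97 to 4.30 FPKM (0.42, SE 0.140, limma adjusted p = 0.0349) and Col1a1 from 0.848 to 1.21 FPKM (0.26, SE 0.0938, limma adjusted p = 0.0495), each in 7 of 8 trained libraries. Col1a2, the partner chain of Col1a1, gave 0.25 (SE 0.0940, limma adjusted p = 0.0590), nearly the same change on the other side of the threshold. Igfbp2 gave 0.19 (limma adjusted p = 0.116), Dcn 0.17 (limma adjusted p = 0.437), Fn1 0.13 (limma adjusted p = 0.491) and Col3a1 0.15 (exact permutation test within sex, p = 0.131). The median over the 8 was 0.26 against 0.003 over all genes.

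The 4 calls were not equally firm. Ptgds and Igf2 passed in each of the 16 fits that left out 1 library, with limma adjusted p up to 6.20e-04 and 0.0298. With all 24 libraries in one fit Ptgds still passed (limma adjusted p = 0.00174), while Igf2, Slc6a13 and Col1a1 did not (limma adjusted p = 0.0849, 0.108 and 0.119). Slc6a13 passed in 8 of them, losing the call without trained male library 1 or 4, trained female 2 or 4, or male 1 or 4 or female 2 or 4 labelled WT (limma adjusted p up to 0.0738). Col1a1 passed in 4, those without trained male 2 or 4, or without male 3 or female 3 labelled WT (limma adjusted p between 0.0190 and 0.0951 over the 16). Col1a2 passed without trained female 3, female 1 labelled WT or female 3 labelled WT, Igfbp2 without trained male 4, and Col3a1 without female 3 labelled WT (0.21, exact permutation test, p = 0.0163).

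Animal number bears on the same contrast, since all 8 trained animals had numbers over 1000 and 7 of the 8 labelled WT had numbers under it. With number as a covariate none of the 8 tested genes passed and 0.175% of all genes did. Without adjustment 5 of the 8 then had a p under 0.05 in limma, as did 1248 of 12572 genes. Before the covariate 6 had, against 37.5% of all genes. The change of Ptgds was then 0.58 (SE 0.263, limma adjusted p = 0.477), and those of Igf2, Slc6a13 and Col1a1 were 1.08, 0.71 and 0.58 with larger errors than before (SE 0.243, 0.305 and 0.193). Only 1 male labelled WT had a number over 1000, so training, label and number cannot be told apart here. Among males with numbers over 1000, training within the label KO (2 untrained, 4 trained) gave 0.295 for Ptgds, 0.417 for Igf2 and 0.296 for Col1a2 (limma adjusted p = 0.592, 0.427 and 0.476), where the last 2 genes were at -0.07 and -0.02 over all libraries. Among animals with numbers under 1000, which are all untrained, the label KO against WT gave 0.63 for Ptgds and 0.66 for Igf2 (limma adjusted p = 0.207 and 0.182).

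**Figure D2:**
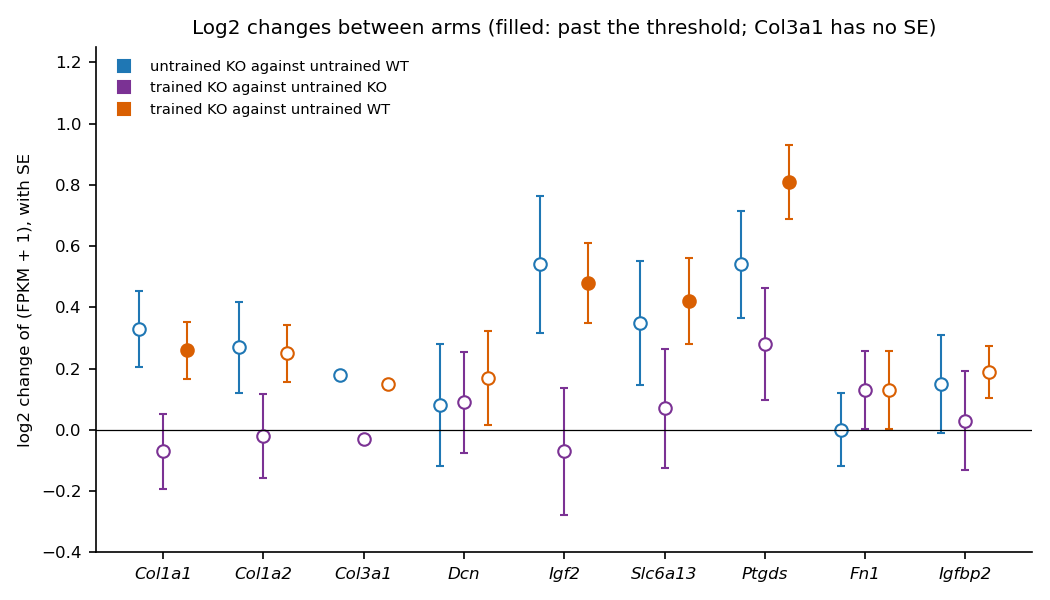
Log2 change of (FPKM + 1) with its SE (vertical axis) for each gene in the 3 comparisons of arms; filled circles passed the threshold, and Col3a1, tested by permutation, has no SE. In trained KO against untrained WT, Ptgds (0.81), Igf2 (0.48), Slc6a13 (0.42) and Col1a1 (0.26) are filled, and no circle of the other comparisons is.

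No difference between the sexes passed for these genes. In males against females over all 24 libraries, none of the 8 had an unadjusted p under 0.05 in limma, where 40.3% of all genes did. None passed after adjustment, where 28.6% of all genes did. That share depends on the processing: after correction for GC content and length, 603 of 12118 genes passed for sex, where 3595 of 12572 had before. Again none of these genes did. Dcn had the largest change, with 5.27 ± 1.56 FPKM (SD, n = 12) in females and 4.24 ± 1.33 (SD, n = 12) in males (-0.26, SE 0.145, limma adjusted p = 0.189). None of the 8 passed for the interaction of label and sex (0% of all genes, 394 of them at an unadjusted p under 0.05) or of training and sex (0.00795% of all genes). The interaction nearest to the threshold was that of Col1a1 with training, -0.47 (SE 0.225, unadjusted p = 0.0543, limma adjusted p = 0.330).

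Animals of the same arm and sex differed in these genes more than in most others. The SD within the 6 groups of arm and sex, on the log2 scale, was 0.45 for Igf2, 0.42 for Slc6a13, 0.41 for Dcn, 0.37 for Ptgds, 0.31 for Igfbp2, 0.30 for Col1a2, 0.29 for Fn1, 0.24 for Col1a1 and 0.21 for Col3a1. The median over the tested genes was 0.12, which placed the 9 genes at percentiles 86.5 to 98.7. Counting error accounted for an SD of 0.02 (Ptgds) to 0.10 (Dcn and Slc6a13), below the spread of each gene.

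The spread ran along libraries. Female library 2 of the untrained arm labelled KO was the lowest of its arm for 7 of the 9 genes and in the lower 4 of 8 for all 9. Male library 1 of that arm and trained male library 2 were also in the lower 4 for all 9. At the other end, untrained male library 3 labelled KO was highest of its arm for 5 genes, female library 3 labelled WT for 4, and male library 3 labelled WT for 3. The summed level of the 3 collagens ran from 3.19 FPKM in that female library 2 to 9.10 FPKM in that male library 3. The one with the highest sum was also the deepest and the one rich in septal neuron markers, and the part of other tissue in its values was not tested.

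**Figure D3:**
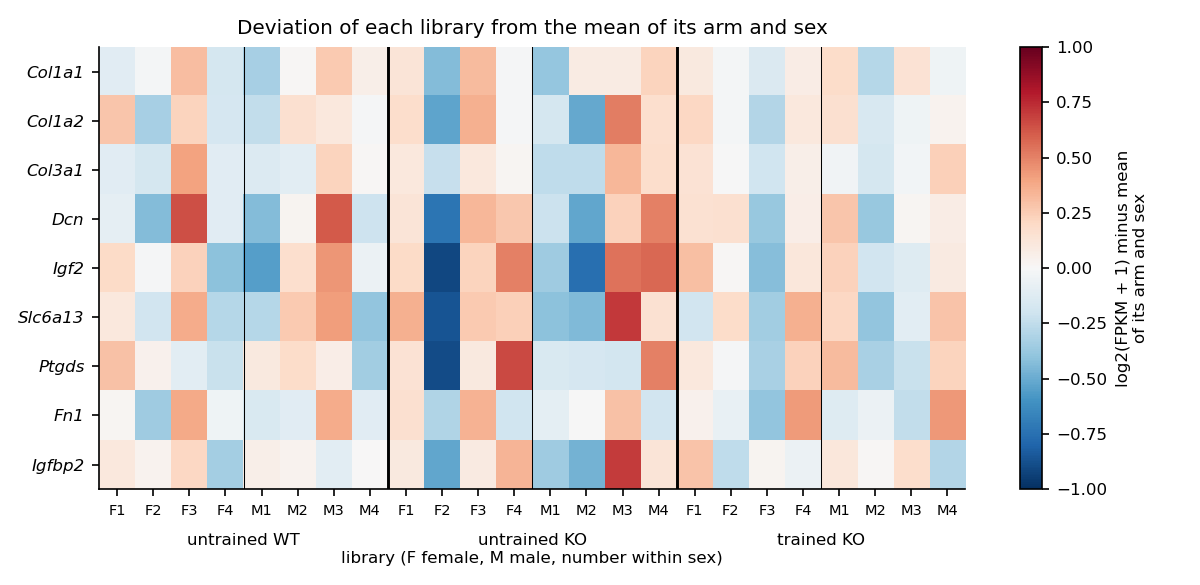
Deviation of log2(FPKM + 1) from the mean of its arm and sex (colour, red above and blue below) for each gene (rows) in each of the 24 libraries (columns, F female, M male). Whole columns share a colour: untrained KO F2 is blue for every gene, and untrained KO M3 is red for every gene but Ptgds.

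Across the 24 libraries, with the mean of each arm and sex removed, all 36 pairs of the 9 genes had a positive Pearson r, from 0.12 to 0.86 with a median of 0.67. Of these, 26 passed an adjusted p of 0.05 (permutation within groups, 100000 resamples, 2-sided, Benjamini-Hochberg over 36), and 27 did with Spearman's rho. Dcn and Igf2 were tied most closely (r = 0.86, rho = 0.88, permutation p = 6.00e-05, adjusted p = 8.23e-04, and r = 0.87 without the 2 libraries farthest from the median of Dcn). Col1a2 and Igf2 followed (r = 0.86, rho = 0.85, permutation p = 1.40e-04, adjusted p = 8.23e-04, and 0.90 without 2). The 3 collagens correlated with each other at 0.63 to 0.76.

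The pairs divided the 9 genes. Slc6a13 passed with all 8 others, Col1a2, Dcn and Igf2 with 7, and Col1a1 and Col3a1 with 6. Fn1 passed with 5, and Ptgds and Igfbp2 with 3 each. Ptgds passed with Igf2 (r = 0.71), Slc6a13 (0.64) and Dcn (0.59) but with none of the collagens (0.34 to 0.51), and it lay at 0.22 with Fn1. Fn1 and Igfbp2 were the least related pair (r = 0.12, rho = -0.03, permutation p = 0.591).

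Of the 26 pairs, 5 lay below 0.5 once the 2 libraries farthest from the median of the first gene were left out, among them Col1a1 and Fn1, which had been at 0.48 before. The pair of Slc6a13 and Igfbp2 fell from 0.58 to 0.11, and so rests on female library 2 and male library 3 of the untrained arm labelled KO. Without that female library 2 alone, 18 pairs passed, and without that male library 3, 27 did. In the 13 animals with numbers under 1000 all 36 pairs were positive with a median r of 0.71, and 15 passed. In the 11 with numbers over 1000, 32 were positive with a median of 0.52, and 4 passed.

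**Figure D4:**
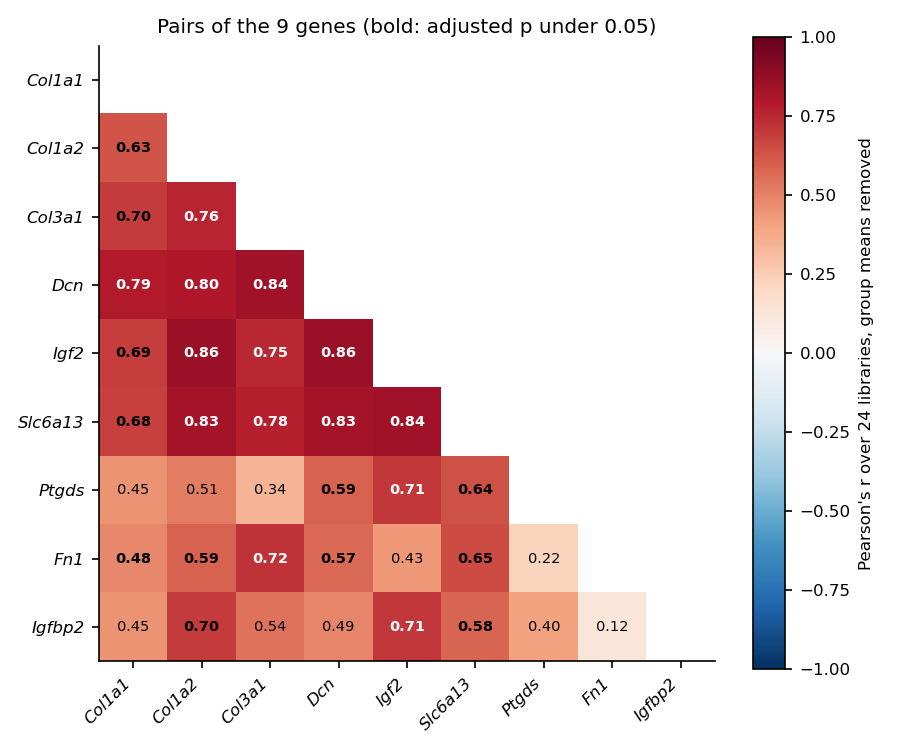
Pearson's r of log2(FPKM + 1) for each pair of the 9 genes over 24 libraries, with the means of arm and sex removed; bold values passed an adjusted p of 0.05. The block of collagens, Dcn, Igf2 and Slc6a13 holds values from 0.63 to 0.86, and the rows of Ptgds, Fn1 and Igfbp2 are mostly paler, down to 0.12.

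The members were then set against marker lists of cells that a piece of cortex can hold, each scored as the mean log2(FPKM + 1) of its genes, over 72 relations chosen after the data were seen. With 26 other meningeal and perivascular fibroblast genes, 8 of the 9 passed: Dcn at r = 0.90 (rho = 0.90, permutation p = 1e-05, the smallest that the resamples can give, adjusted p = 3.60e-04, and 0.92 without 2 libraries), Igf2 at 0.89, Slc6a13 at 0.88, Col1a2 at 0.87, Col1a1 at 0.77, Col3a1 at 0.75, Ptgds at 0.72 and Fn1 at 0.66. Igfbp2 did not (r = 0.49, rho = 0.47, permutation p = 0.0406, adjusted p = 0.108). No difference between lists was tested. The list and the 9 genes were read in the same libraries at the same depth.

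Fn1 varied with vessel markers. It correlated with endothelial markers at r = 0.70 (rho = 0.64, permutation p = 6.60e-04, adjusted p = 0.00528, and 0.63 without 2 libraries) and with mural cell markers at 0.60 (adjusted p = 0.0194), where no other of the 9 passed for either (the difference between genes was not tested). Ptgds correlated with astrocyte markers at 0.68 (rho = 0.57, permutation p = 0.00674, adjusted p = 0.0285, and 0.57 without 2), as did Slc6a13 at 0.60. With the markers of oligodendrocytes, which also make it, Ptgds lay at 0.14 (rho = 0.02, permutation p = 0.496, adjusted p = 0.601). The cells that the Ptgds reads came from were not tested.

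Markers of border macrophages, which live among meningeal fibroblasts, varied with 6 members: Igf2 at 0.75, Dcn at 0.74, Col3a1 at 0.64, Ptgds at 0.63, Slc6a13 at 0.62 and Col1a1 at 0.57 (adjusted p up to 0.0479). Their 5 markers found in the table were all below the filter, and their summed level ran from 1.32 to 2.44 FPKM in libraries labelled WT, 1.79 to 6.21 in untrained and 2.43 to 4.42 in trained libraries labelled KO. Cortical excitatory neuron markers ran the other way for Slc6a13 (r = -0.56, rho = -0.70, permutation p = 0.00340, adjusted p = 0.0175) and Col3a1 (-0.51, adjusted p = 0.0285), falling to -0.40 and -0.42 without 2 libraries. No member passed with choroid plexus or oligodendrocyte markers.

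**Figure D5:**
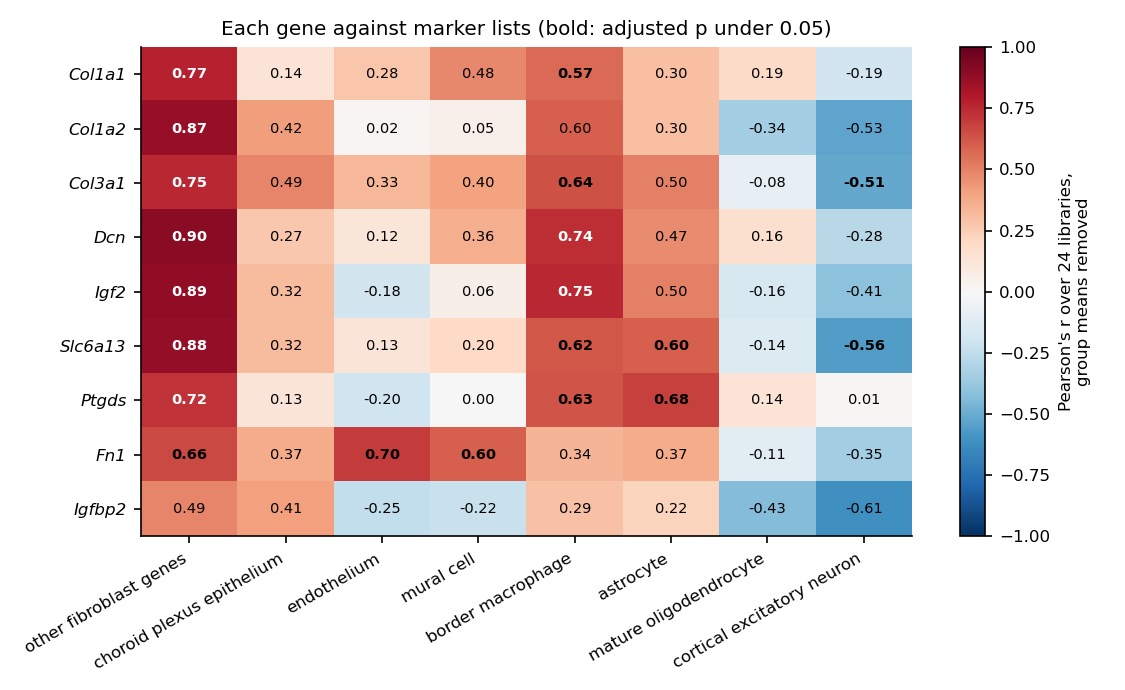
Pearson's r over 24 libraries, with the means of arm and sex removed, between each gene (rows) and the mean of each marker list (columns); bold values passed an adjusted p of 0.05 over 72 relations. The first column is strongest for every gene except Fn1 (0.70 with endothelium against 0.66) and Igfbp2, whose strongest value is -0.61 with cortical neurons and is not bold. That value of Igfbp2 (rho = -0.35) turned to 0.35 without the 2 libraries farthest from its median.

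Of 12564 other genes, the 10 whose deviations across the 24 libraries were most like those of the 3 collagens together, by Pearson's r, were Serping1 (0.92), Serpinf1 (0.87), Bmp6 (0.86), Itih2 (0.85), Fmod (0.85), Lyz2 (0.84), Slc13a3 (0.84), Aebp1 (0.83), Slc13a4 (0.82) and Anpep (0.81), against a median of -0.06. Each stayed at 0.81 to 0.90 without untrained male library 3 labelled KO. They include an inhibitor of complement C1 (Serping1), pigment epithelium-derived factor (Serpinf1), a bone morphogenetic protein (Bmp6), a collagen-binding proteoglycan (Fmod), a lysozyme of macrophages (Lyz2) and a sulfate transporter (Slc13a4). On the same measure Dcn lay at 0.90, Igf2 and Slc6a13 at 0.86, Fn1 at 0.67, Igfbp2 at 0.63 and Ptgds at 0.49.

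The other fibroblast genes did not move between arms as one. All 26 were found and 17 tested: none passed between the untrained arms, and Fbn1, the microfibril protein fibrillin 1, fell with training from 1.29 to 0.800 FPKM (-0.34, SE 0.0864, limma adjusted p = 0.0310). In the trained arm labelled KO against the arm labelled WT, 12.9% of all genes rose and 24.5% moved in either direction. Of the 17, 5 rose and 4 fell, with a median of 0.22. Those that rose were Fbln1, a basement membrane fibulin (0.41, limma adjusted p = 8.73e-04), Ogn (0.45), Crabp2 (0.37), Slc13a4 (0.37) and Slc22a6 (0.30). Those that fell were Fbn1 (-0.39, limma adjusted p = 0.00461) and 3 collagen chains of other types, Col5a1 (-0.27), Col6a2 (-0.26) and Col12a1 (-0.22). Ogn, Crabp2, Slc13a4, Slc22a6 and Col12a1 were named after their values were seen.

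These genes were then set beside the 3 collagens, as a description with no test. The 5 that rose correlated with those at 0.65 to 0.82 across libraries, while Col5a1, Col6a2 and Col12a1 lay at -0.06, 0.18 and -0.17, and Fbn1 at 0.48. Among the small leucine-rich proteoglycans, the family of decorin, 7 of 9 were found and 5 tested. Fmod rose from 3.97 ± 1.21 to 7.13 ± 1.42 FPKM (SD, n = 8; 0.73, SE 0.140, limma adjusted p = 0.00145) and Ogn from 2.21 to 3.45 FPKM (limma adjusted p = 0.0463), again in trained KO against WT. None of the 5 fell, and 12.9% of all genes rose in that contrast. Fmod stood at 7.07 ± 2.99 FPKM in the untrained arm labelled KO, where it did not pass (0.64, limma adjusted p = 0.231).

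Of 13 tested genes that process and cross-link procollagen, 4 rose in trained against untrained libraries labelled KO and none fell, where 3.50% of all genes rose. P4ha1, a prolyl hydroxylase subunit, rose from 12.4 ± 2.42 to 19.6 ± 1.22 FPKM (SD, n = 8; 0.64, SE 0.0931, limma adjusted p = 0.00119). Serpinh1, the collagen chaperone HSP47, rose from 4.03 ± 0.610 to 6.35 ± 0.991 FPKM (0.55, SE 0.0923, limma adjusted p = 0.00338), P4ha2 rose by 0.31 and the lysyl hydroxylase Plod1, named after its value was seen, by 0.23. Against WT 6 rose, where 12.9% of all genes did. They were these 4 with the procollagen peptidase Adamts2 (0.28, limma adjusted p = 0.00187) and Pcolce (0.35, limma adjusted p = 0.0410), the last also named after its value was seen.

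From library to library, the correlations of these 13 genes with the 3 collagens ran from -0.51 for P4ha1 to 0.78 for Pcolce, with Serpinh1 at 0.21. Of the collagen and fibronectin receptors, 7 were tested and 1 passed against WT, where 24.5% of all genes did. It was Ddr1, a receptor kinase for fibrillar collagen, which fell from 18.2 to 15.3 FPKM (-0.24, limma adjusted p = 0.0415). The collagens, P4ha1 and Serpinh1 thus gave different values for training: -0.07 for Col1a1 and -0.02 for Col1a2 beside 0.64 and 0.55, with the difference between genes not tested.

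Around Igf2 and Igfbp2, 11 genes of the insulin-like growth factor axis were tested. With training 1 fell and none rose, where 5.67% of all genes passed, and against WT 1 rose and 1 fell, where 24.5% did. Igf2r, the receptor that clears IGF2, fell with training from 6.19 to 5.28 FPKM (-0.19, SE 0.0538, limma adjusted p = 0.0452) and against WT from 6.55 (-0.27, SE 0.0429, limma adjusted p = 3.83e-04), where Igf2 rose. The adaptor Irs2 rose against WT from 11.7 to 14.5 FPKM (0.29, limma adjusted p = 0.0437). None passed between the untrained arms, and the other binding proteins tested, Igfbp3 to Igfbp7, passed in no comparison of arms.

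Around Ptgds, 4 genes of the prostaglandin D2 pathway were tested, and 3 passed in trained KO against WT, where 24.5% of all genes did. The cyclooxygenase Ptgs1, one step before the synthases, fell from 7.72 to 6.40 FPKM (-0.24, limma adjusted p = 0.00360), and Hpgds, the hematopoietic prostaglandin D synthase, fell from 1.74 to 1.23 FPKM (-0.29, limma adjusted p = 0.00610). The inducible cyclooxygenase Ptgs2 rose from 4.76 to 5.98 FPKM (0.27, limma adjusted p = 0.0174). Ptgds at 925 FPKM and Hpgds at 1.23 FPKM thus moved in opposite directions in that contrast.

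Around Slc6a13, 5 related transporters were tested. With training 2 fell and none rose, where 5.67% of all genes passed, and against WT 1 rose and 2 fell, where 24.5% did. The taurine transporter Slc6a6 fell with training from 28.5 to 24.2 FPKM (-0.22, SE 0.0484, limma adjusted p = 0.0152). It also fell against WT, by 0.24 on the log2 scale (limma adjusted p = 0.00247), where Slc6a13 rose. The creatine transporter Slc6a8 rose against WT from 28.5 to 31.6 FPKM (0.14, limma adjusted p = 0.0386).

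Markers of neighbouring structures are given beside these results. Of the arachnoid barrier list 4 genes were tested and none passed in any comparison of arms, with summed levels of 57.7 to 98.1 FPKM in libraries labelled WT, 46.0 to 83.4 in untrained and 68.6 to 106 in trained libraries labelled KO. Cldn11 alone averaged 66.6, 60.2 and 75.9 FPKM in these arms, so the sum mostly follows that gene. Across libraries, Cldn11 correlated with the 3 collagens at -0.22, Dpp4 at 0.07, Gjb2 at 0.79 and Slc6a20a at 0.80. These 4 genes were named after their values were seen. Of the choroid plexus list 2 of 10 were tested and none passed. Its defining gene Ttr averaged 3.12, 3.67 and 13.5 FPKM in the 3 arms and reached 81.9 in 1 library. Otx2 averaged 0.0622, 0.293 and 0.0700 FPKM, from 0 in 3 libraries up to 2.02 FPKM. Ttr and Otx2 were named after their values were seen. Endothelial sums were 38.9 to 55.1, 36.9 to 58.8 and 41.2 to 67.0 FPKM, with Ly6c1 rising with training (0.49, limma adjusted p = 0.00763), and mural sums were 52.3 to 68.3, 54.5 to 68.7 and 51.6 to 71.5 FPKM, with Pdgfrb falling (-0.28, limma adjusted p = 0.0311). In trained KO against WT, the astrocyte markers Gjb6 (0.32) and Aldoc (0.15) rose and Slc1a3 fell (-0.21), the oligodendrocyte marker Ermn rose (0.34) and Opalin fell (-0.63), and of the cortical neuron markers Neurod6 rose (0.19) and Rasgrf2 fell (-0.20). Each of these lists had 8 tested genes, and 24.5% of all genes passed in that contrast, against 5.67% with training. The part of all these cells in the changes of the 9 genes was not tested. With 1 library left out, the training calls of Igf2r and Plod1 held in 3 of 16 fits, P4ha2 in 7, Pdgfrb in 8 and Fbn1 in 10. Those of Ly6c1, P4ha1, Serpinh1 and Slc6a6 held in all 16. Against WT, Ddr1 and Aldoc held in 4, and Crabp2 and Ermn in 5. Irs2, Pcolce, Slc6a8 and Neurod6 held in 6, and Ogn and Slc13a4 in 7. Col12a1 held in 8, Slc1a3 in 10, Slc22a6 in 11, Col6a2 and Plod1 in 13, and the other listed genes named in all 16. With animal number as a covariate, none of the calls of listed genes held: 42 lost the threshold and 4 changed sign. Over all genes that covariate left 0 of 12572 called for training and 0.175% in trained KO against WT, so this loss is not particular to the lists.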

How the data were processed

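Poly(A) RNA of 24 cortices was sequenced from stranded mRNA libraries, per the labels' protocols. The authors deposited FPKM for 15232 genes. The submitters' processing notes name FastQC 0.11.7, Trimmomatic 0.38, STAR 2.5.3a, featureCounts of Subread 1.6.3 and mm10; annotation, strand setting and the program that made the FPKM are not given in the sources used here. FPKM hides depth, so reads were recovered from its steps (15231 genes, 99.97% of values whole within 0.01 read), and cover counting error only.

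For each pair of arms, the 12572 genes with a mean of at least 1 FPKM entered a limma model (version 3.58.1, R 4.3.3, trended eBayes) of log2(FPKM + 1) with sex as covariate, Benjamini-Hochberg adjustment and a threshold of 0.05; sex was fitted over 24 libraries with arm as covariate. The fit was tested on simulated data. Col3a1 was compared by exact permutation within sex (4900 assignments) or, between sexes, within arm. Correlations were tested by permutation within the 6 groups of arm and sex. limma-voom on recovered reads called 178, 806 and 3104 genes where the fits called 179, 713 and 3074.

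P-values measure the spread between these animals; whether any shared a litter or batch is not given in the sources used here. Same-numbered libraries are different animals and did not deviate together (mean r between -0.1 and 0.02), so no pairing was used. The 9 genes, the lists and the rules were chosen with earlier results of these data known. Named genes are the 9, up to 4 called genes a list by smallest p, and the 10 genes most like the collagens; others are marked as named after their values were seen. Coordinates are GENCODE M21 on GRCm38 (mm10). Python 3.11.15 with numpy 2.4.6, pandas 2.3.3 and scipy 1.17.1 was used. Of the listed genes, 2 are not reported here.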

Additional observations from a re-analysis of the deposited data

How the results depend on the processing

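Alternatives covered scaling, filter, pseudocount, covariates, limma-voom, animal number and leaving out each library; analyses split at number 1000 were chosen after seeing the data. The count of 4 genes in trained KO against WT moved to 2 with equal sums of FPKM, 1 (Ptgds) with all 24 libraries in one fit and 0 with animal number as a covariate, and ran from 2 to 5 when 1 library was left out. That between untrained arms ran from 0 to 1. Equal sums turned the split of all genes from 1626 higher and 1448 lower to 1095 and 2112. The 26 pairs became 15 under number 1000, 4 over it, and 18 to 27 without 1 library. The last 3 counts rest on fewer libraries, and the cause of these changes was not tested.

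Same-numbered libraries are different animals and no pairing was used. With the number as a replicate block, leaving out the trained female without a number and its partners, 1 gene passed in trained KO against WT (Ptgds, limma adjusted p = 0.00484; Igf2 gave 0.407, limma adjusted p = 0.0869) and 1 for sex (Dcn, -0.255, limma adjusted p = 0.0380); over all genes the block left 114, 29 and 1614 calls.

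Values near 0 changed sign. Fn1 between untrained arms was 0.020 with array weights, 0.015 with number as a covariate and 0.010 under number 1000. For training, array weights gave 8.5e-04 for Col1a1, 0.035 for Col1a2 and 0.051 for Igf2, the number covariate 0.377 for Col1a2 and 0.557 for Igf2, and males over 1000 0.296 and 0.417; Igfbp2 was -1.2e-04 with equal sums and -0.008 with limma-voom. For sex, GC and length correction gave -0.009 for Col1a1, -0.048 for Col1a2, -0.093 for Ptgds and -0.076 for Igfbp2, array weights -0.018 for Col1a2, and numbers under 1000 0.324 for Igf2 and 0.198 for Slc6a13. With the number covariate, trained KO against WT gave 0.080 for Col6a2, 0.058 for Col12a1, -0.100 for Aldoc and -0.083 for Irs2. Without 1 library, training ran from -0.10 to 0.066 for Col1a2, -0.065 to 0.018 for Col3a1, -0.027 to 0.17 for Dcn, -0.21 to 0.028 for Igf2, -0.063 to 0.16 for Igfbp2 and -0.068 to 0.19 for Slc6a13. Sex ran from -0.01 to 0.10 for Col1a2, -0.058 to 0.008 for Col3a1, -0.12 to 0.044 for Igf2 and -0.026 to 0.13 for Ptgds, and Fn1 between untrained arms from -0.064 to 0.057. The counting SD of log2(FPKM + 1) was largest for Dcn and Slc6a13, at 0.10, and smallest for Ptgds, at 0.02. Beside the SD within groups it was 0.08 of 0.21 for Col3a1 and 0.09 of 0.24 for Col1a1. For Dcn it was 0.10 of 0.41 and for Slc6a13 0.10 of 0.42. Col3a1 also had the fewest reads, 23 to 165 a library.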
